A study of Mus musculus with 6 samples.

Results

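The genes described are the NADPH oxidases and antioxidant enzymes measured by TA (transcriptome analysis by microarray) in the kidney of lupus-prone mice. They are the 4 phagocyte oxidase subunits Cybb, Cyba, Ncf1 and Ncf4, the renal oxidase Nox4, the superoxide dismutases Sod1, Sod2 and Sod3, and the heme oxygenase Hmox1. Every non-control probe that the array annotation gives to one of these 9 genes was taken, which made 18 of 56605 probes. A probe entered the test where at least 3 arrays of the 6 read it well above background, which left 17 of the 18, among 39924 in all.

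Whole kidneys of 3 female MRL/MpJ mice (MRL), the controls, and 3 female MRL/MpJ-Fas lpr/lpr mice (LPR), the diseased group, were collected at the age of 6 months, and each mouse gave 1 array. Both groups share the MRL/MpJ background and the specific pathogen-free housing, the labels name no treatment, and the groups differ by the lpr allele of Fas. The control strain is itself known to develop a milder autoimmune disease late in life. The comparison asks which oxidant-producing and oxidant-removing genes differ between the diseased and the control kidney.

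NADPH oxidases pass electrons from NADPH through a membrane to oxygen and release superoxide or hydrogen peroxide. The phagocyte enzyme is a membrane pair, the catalytic Cybb (NOX2) and its partner Cyba, which works only when cytosolic subunits, Ncf1 and Ncf4 among them, and a Rac GTPase join it, whereas Nox4 of the renal tubule also uses Cyba but needs no cytosolic subunit and is active whenever it is made. Superoxide dismutases turn superoxide into hydrogen peroxide, in the cytosol (Sod1), the mitochondrial matrix (Sod2) and the extracellular space (Sod3), and Hmox1 breaks down heme to biliverdin, iron and carbon monoxide.

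In LPR kidneys the catalytic and the cytosolic subunits of the phagocyte oxidase were higher, with log2 changes of 2.31 to 3.11 for the brightest probes of Cybb, Ncf1 and Ncf4, which is 4.95-fold to 8.66-fold. Brightness was the mean over all 6 arrays, so the LPR values took part in the choice. The other tested probes of Cybb and Ncf1, which were the brighter ones in MRL mice, rose less, 6.22-fold and 2.76-fold. Cyba, the membrane partner, did not pass the test. The brightest Nox4 probe was lower, at a log2 change of -0.55, and no antioxidant enzyme passed the test by its brightest probe. Thus 3 of the 9 genes were higher and 1 was lower, while among all 25805 tested genes 7.12% were higher and 5.47% were lower by the same measure. By probe, 5 of the 17 were higher, 2 were lower and 10 did not pass, beside 6.53% higher and 6.17% lower among all tested probes (limma, Benjamini-Hochberg adjusted over all tested probes, threshold 0.05). The groups did not overlap at 9 of the 17 probes, beside 37.9% of all tested probes. The LPR mice were all above at 5 of the 17, beside 11% of all, and all below at 4, beside 26.9% of all. Of the 9 genes, 4 had a negative change, beside 67.5% of all tested genes.

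All values below are log2 signals relative to the 75th percentile of the array, and a log2 change is the mean of the LPR mice minus the mean of the MRL mice. Probes differ in brightness for reasons other than transcript number, so a level is compared only between mice for the same probe. Over all tested probes the median log2 change was -0.14, with 68.6% of probes below 0, so small negative changes stand near the middle of the array. Between 69.6% and 73.5% of the spots of an array were well above background and 0 were saturated. All 6 arrays lay on 1 slide, 4 in its first column (the 3 MRL mice and LPR 1) and 2 in its second (LPR 2 and LPR 3). Fas itself, the gene that carries the lpr insertion, gave a log2 change of -0.47 (standard error 0.24, limma adjusted p = 0.234) at its brighter probe and a rise of at least 1.47-fold in LPR mice at the dimmer one (adjusted p = 0.0338), whose MRL signal was below background on all 3 arrays. The second call was lost under 11 alternatives of the processing.

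The following 60-base probes of Nox4 and Cyba are shown because each crosses a splice junction, so that it reads spliced transcript, and because the 2 genes form the oxidase of the tubule. The Nox4 probe covers 15021 bases of the mouse genome build mm9, chr7:94472458-94487478 on the plus strand. The Cyba probe covers 411 bases, chr8:124951180-124951590 on the minus strand.
Nox4 A_51_P369311: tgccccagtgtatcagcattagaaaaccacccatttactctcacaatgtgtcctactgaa
Cyba A_66_P111502: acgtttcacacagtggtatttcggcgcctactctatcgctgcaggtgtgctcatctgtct

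Cybb, the flavocytochrome that carries the electrons, was read by 2 probes on chromosome X. At the brighter one, A_52_P444628 (mm9 chrX:9014314-9014373), the MRL mice gave -4.13, -4.52 and -4.12 and the LPR mice -0.86, -1.75 and -1.22. The highest MRL mouse stood below the lowest LPR mouse by far more than the spread within either group. The group values were -4.26 ± 0.23 (SD, n = 3) and -1.28 ± 0.45 (SD, n = 3), a log2 change of 2.98 (standard error 0.24, 7.89-fold, limma adjusted p = 0.000369). Only 1.44% of all tested probes had a larger change. The other probe, A_55_P2082733, read -4.20, -4.52 and -4.02 in MRL mice and -1.15, -1.95 and -1.73 in LPR mice, again without overlap. Its change was 2.64 (6.22-fold, limma adjusted p = 0.000563). LPR 1 was the highest mouse for both probes. Normexp background correction adds an offset to every signal, which weighs most on dim ones. Under it the changes of both probes were smaller, 3.66-fold and 2.90-fold, and both calls held.

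Ncf1, the organizer subunit that brings the cytosolic complex to the membrane, was read by 3 probes on chromosome 5. A_55_P2071466 (mm9 chr5:134696380-134696439) gave -4.79, -4.36 and -3.39 in MRL mice and -1.72, -1.89 and -2.01 in LPR mice. All LPR mice were above all MRL mice, and MRL 3 was the nearest to them. The log2 change was 2.31 (standard error 0.33, 4.95-fold, limma adjusted p = 0.00598). The adjusted p became 0.0606 when the slide column was fitted too and 0.0600 by the methods' t-test, and under normexp background correction the rise was 2.47-fold.

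A_51_P207031, assigned to the Ncf1 transcript NM_010876, gave -4.26, -4.07 and -3.52 in MRL mice and -2.31, -2.55 and -2.59 in LPR mice. MRL 3 was again the highest control. Its change was 1.46 (standard error 0.20, 2.76-fold, limma adjusted p = 0.00475), and it was 1.79-fold under normexp background correction. The remaining probe, A_55_P2510428, which is assigned to a non-coding transcript variant, was not well above background on any array and was not tested.

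Ncf4, the subunit that binds a membrane phosphoinositide on phagosomes, was read by a single probe, A_51_P377452 (mm9 chr15:78092903-78092962). MRL mice gave -1.48, -1.23 and -0.06, and LPR mice gave 2.27, 2.15 and 2.15. The LPR mice lay within a narrow band (SD 0.07) well above every control, whereas the controls were spread (SD 0.76) by the high value of MRL 3. The change was 3.11 (standard error 0.35, 8.66-fold, limma adjusted p = 0.00171), the largest of the 9 genes. Without MRL 3 it was 11.7-fold.

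Cyba, the small membrane subunit that both Cybb and Nox4 need, was read by 3 probes on chromosome 8, and none passed the test. The brightest, A_55_P1979341 (mm9 chr8:124948726-124948785), gave 6.44, 6.63 and 6.45 in MRL mice and 6.35, 6.76 and 6.51 in LPR mice. The lowest and the highest of the 6 values were both LPR mice. The log2 change was 0.03 with a 95% confidence interval of -0.29 to 0.36 (limma adjusted p = 0.890), an interval that reaches at most 1.28-fold. The splice-junction probe gave 0.28 (interval -0.18 to 0.73, adjusted p = 0.368), with values of 4.28, 4.39 and 3.79 in MRL mice and 4.28, 4.68 and 4.33 in LPR mice. The probe of the cDNA AK154184, A_55_P2736580, gave 0.14 (interval -0.16 to 0.45, adjusted p = 0.479).

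**Figure D1:**
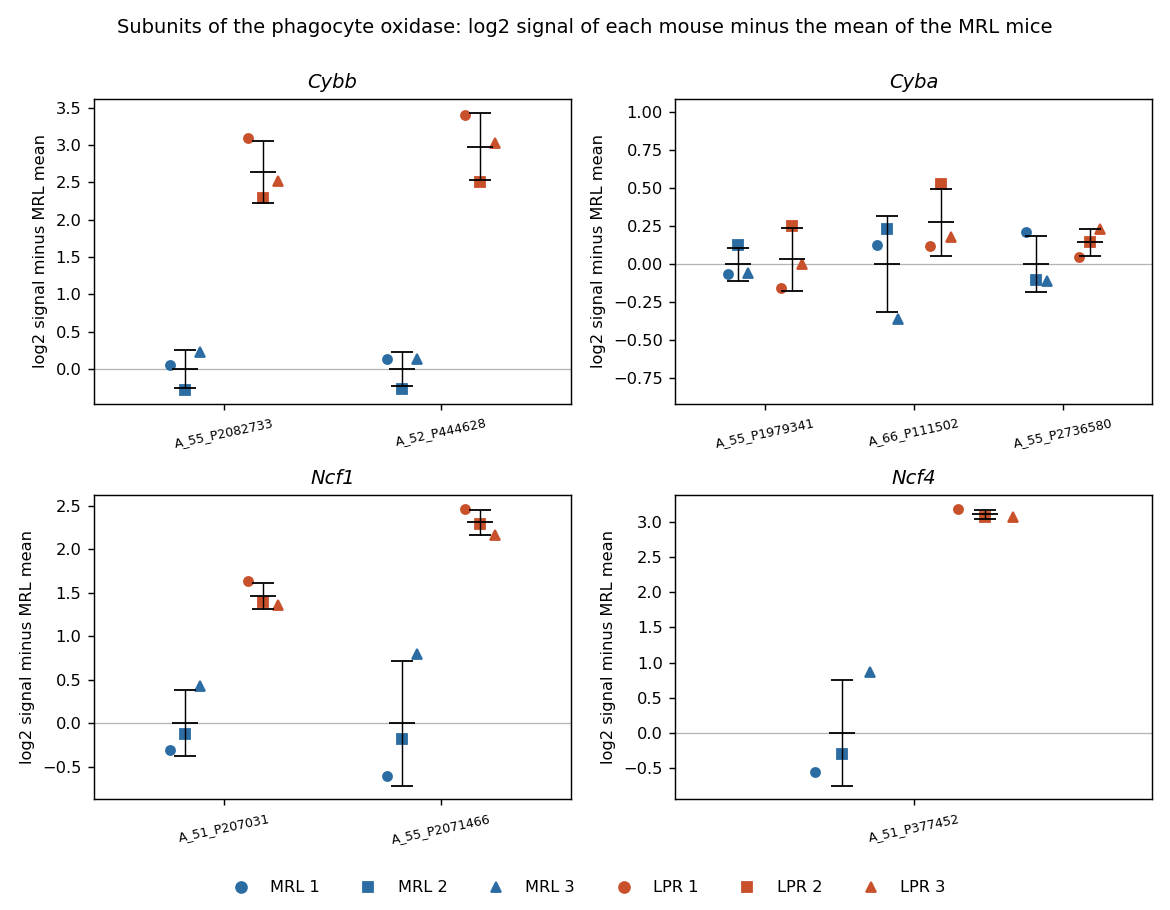
Log2 signal of each mouse minus the mean of the 3 MRL mice (y axis, a separate scale per gene) for every tested probe (x axis) of Cybb, Cyba, Ncf1 and Ncf4. Bars are the mean ± SD of 3 mice. The LPR mice lie above all MRL mice at the 5 probes of Cybb, Ncf1 and Ncf4, as at 11% of all tested probes. MRL 3 is the highest control for Ncf1 and Ncf4, and the groups overlap at the 3 Cyba probes.

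Nox4, the constitutively active oxidase of tubular epithelium, was read by 4 probes on chromosome 7, and all 4 changes were negative, with a median of -0.44. The brightest, A_55_P2745049 (mm9 chr7:94545342-94545401), gave 1.44, 1.68 and 1.53 in MRL mice and 0.94, 0.93 and 1.14 in LPR mice. All LPR mice were below all MRL mice. That is a log2 change of -0.55 (standard error 0.12, 95% confidence interval -0.83 to -0.27, 1.46-fold lower, limma adjusted p = 0.0276). Set against the median change of all probes it was -0.41, and 8.50% of tested probes had a more negative change. The call was lost under 10 of 20 alternatives, among them leaving out MRL 1, MRL 2, MRL 3, LPR 1 or LPR 2, with adjusted p up to 0.119, and it held under every other scaling of the arrays. Over these alternatives the change stayed between -0.62 and -0.40.

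At the splice-junction probe of Nox4 the MRL mice gave 0.36, 0.60 and 0.24, and the LPR mice gave -0.05, -0.13 and 0.00. These groups did not overlap either, as at 26.9% of all tested probes with the LPR mice below, and the change of -0.46 missed the threshold (interval -0.75 to -0.16, limma adjusted p = 0.0588). The probes of 2 other transcript models overlapped between groups. A_66_P109751 changed by -0.17 (interval -0.58 to 0.25, adjusted p = 0.554). A_55_P2719940, well above background on 2 of the 3 LPR arrays, gave -0.42 (interval -1.02 to 0.19, adjusted p = 0.312) and 0.09 within the first slide column. The 4 probes therefore shared a sign in the comparison of all mice but only 1 passed the test.

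Among the superoxide dismutases, all 4 probes had negative changes, with a median of -0.35. The bright Sod1 probe, A_51_P367381 (mm9 chr16:90226497-90226556), gave 6.87, 7.04 and 7.16 in MRL mice and 6.58, 6.99 and 6.82 in LPR mice. The groups overlapped, and the change was -0.23 (interval -0.57 to 0.11, limma adjusted p = 0.327), which is -0.09 against the median change. The dimmer A_52_P3581 (mm9 chr16:90224181-90224240), assigned to the cDNA AK080908 and not to the reference transcript, gave -1.30, -1.53 and -1.19 in MRL mice and -1.97, -1.81 and -1.85 in LPR mice. Here all LPR mice were below the MRL mice, with a change of -0.53 (standard error 0.12, adjusted p = 0.0359) that was lost under 9 of 19 alternatives, among them leaving out any mouse other than MRL 2.

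Sod2, the manganese enzyme of mitochondria (A_55_P2908509, mm9 chr17:13210864-13210923), gave 3.25, 3.47 and 3.25 in MRL mice and 2.80, 3.05 and 2.89 in LPR mice. No LPR mouse reached a control, yet the change of -0.41 (standard error 0.12, interval -0.70 to -0.12) did not pass after adjustment (limma adjusted p = 0.0713). It passed under 2 alternatives, normexp background correction and an intensity trend. Sod3, the secreted enzyme (A_55_P2077558, mm9 chr5:52760685-52760744), gave 5.69, 5.57 and 5.86 in MRL mice and 5.37, 5.64 and 5.26 in LPR mice. LPR 2 lay within the range of the controls, and the change was -0.28 (interval -0.61 to 0.05, adjusted p = 0.224).

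Hmox1 (A_55_P2757433, mm9 chr8:77624406-77624466) differed more between mice of a group than between the groups. MRL mice gave 0.66, 1.60 and 3.12, and LPR mice gave 1.91, 1.07 and 3.73. The third mouse of each group was the highest, and the groups overlapped over most of their range. The change of 0.44 had a standard error of 0.81 and an interval of -1.49 to 2.37 (limma adjusted p = 0.743), and it was -0.13 without MRL 1 and -0.31 without LPR 3. Only 0.208% of all tested probes had a larger SD within groups. The interval takes in a 5.17-fold rise and a 2.81-fold fall, so with 3 mice per group neither direction is excluded within these bounds.

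**Figure D2:**
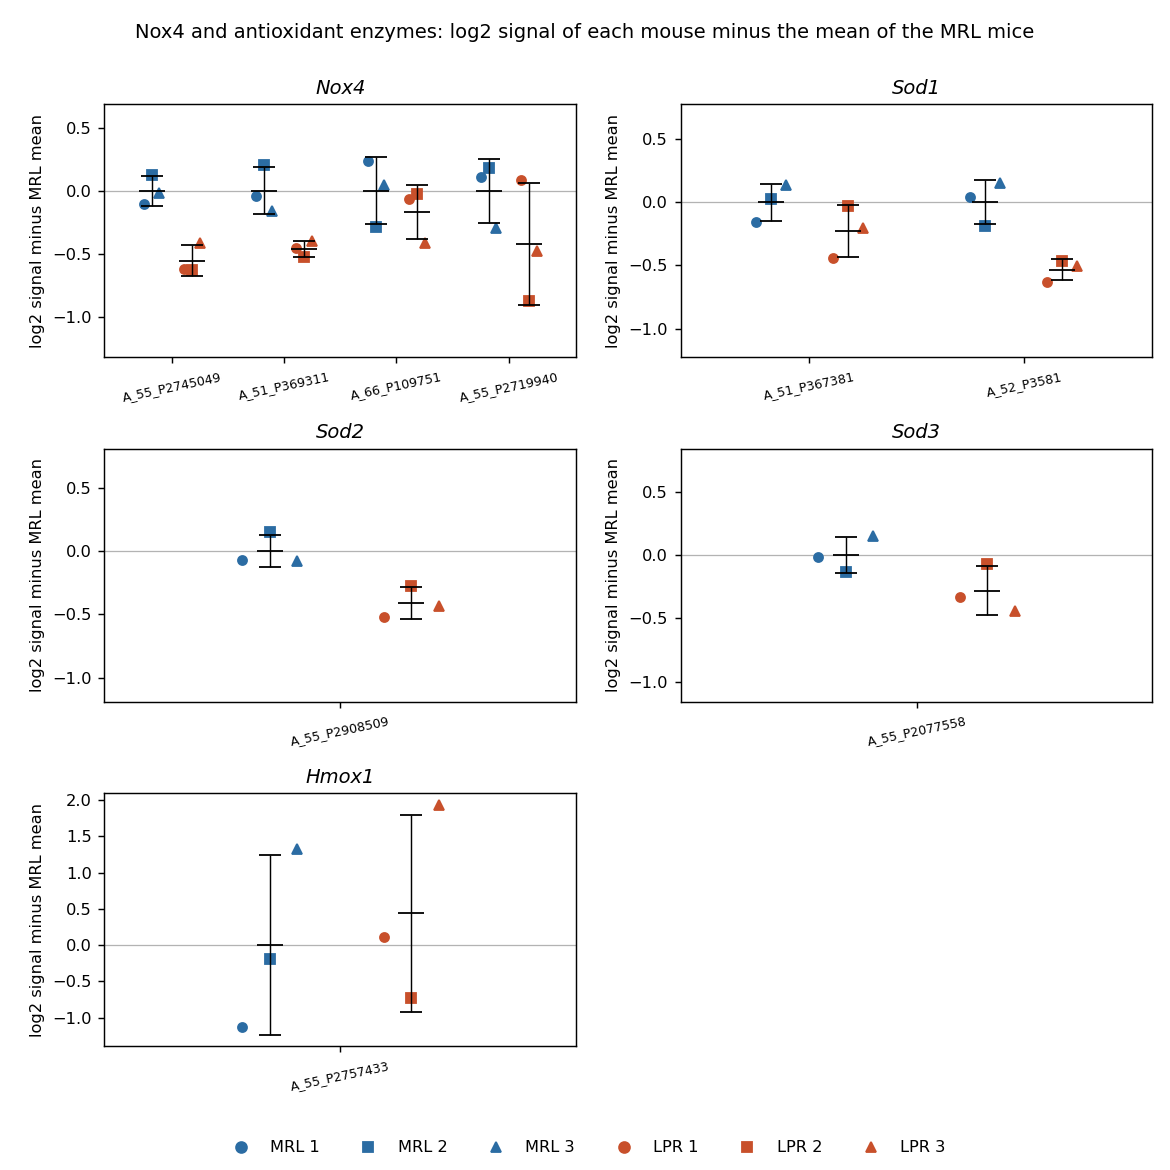
Log2 signal of each mouse minus the mean of the 3 MRL mice (y axis, a separate scale per gene) for every tested probe (x axis) of Nox4, Sod1, Sod2, Sod3 and Hmox1. Bars are the mean ± SD of 3 mice. The LPR mice lie below all MRL mice at 2 Nox4 probes, 1 Sod1 probe and the Sod2 probe, as at 26.9% of all tested probes. The Hmox1 values range over about the same span in both groups.

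**Figure D3:**
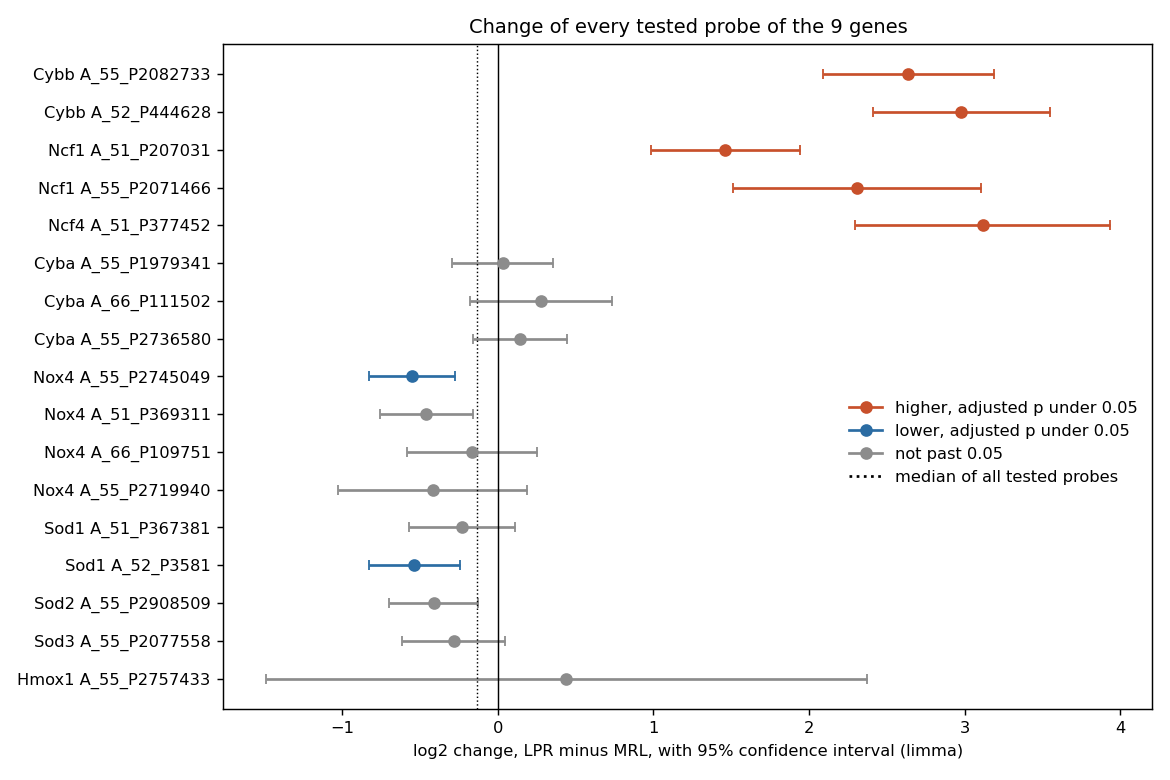
Log2 change, LPR minus MRL (x axis), of the 17 tested probes (y axis) with 95% confidence intervals from limma. The dotted line is the median change of all tested probes, -0.14. The 5 probes of Cybb, Ncf1 and Ncf4 stand at 1.46 to 3.11, and all others lie between -0.55 and 0.44.

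Whether the phagocyte oxidase changed differently from Nox4 was tested within each array, as the value of one gene minus that of Nox4. Cybb minus Nox4 was -5.57, -6.20 and -5.65 in MRL mice and -1.80, -2.67 and -2.36 in LPR mice, so that the difference between the 2 changes was 3.53, or 11.5-fold. The same difference was 3.66 for Ncf4 and 2.86 for Ncf1, each without overlap of the groups. For Cyba it was 0.58, also without overlap, though Cyba itself changed by 0.03 with overlapping groups and Nox4 by -0.55. With 3 against 3 mice the exact two-sided permutation test cannot go below p = 0.1, which each of these differences reached, and the adjusted p was 0.15 over 9 pairs.

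Cybb against its own partner Cyba gave 2.95, also without overlap and with exact permutation p = 0.1. Of the antioxidant genes, Sod1 minus Nox4 rose by 0.32 without overlap (exact p = 0.1), though Sod1 itself changed by -0.23 with overlapping groups. The differences of Sod2 (0.14, exact p = 0.3), Sod3 (0.27, exact p = 0.4) and Hmox1 (0.99, exact p = 0.4) overlapped between the groups. The order of the 9 changes, from the highest, was Ncf4, Cybb, Ncf1, Hmox1, Cyba, Sod1, Sod3, Sod2 and Nox4. The confidence intervals of neighbours in this order overlapped, and those of Ncf4, Cybb and Ncf1 lay above those of Cyba and of every gene after it.

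Within the first slide column, where the 3 MRL mice stood beside LPR 1 alone, the changes of the brightest probes were 3.40 for Cybb, 2.46 for Ncf1, 3.19 for Ncf4, -0.16 for Cyba, -0.61 for Nox4, -0.44 for Sod1, -0.52 for Sod2, -0.33 for Sod3 and 0.12 for Hmox1. When the column was fitted too, which rests on the same contrast, Cybb (limma adjusted p = 0.00319) and Ncf4 (adjusted p = 0.0332) passed the test, and the brightest probes of Ncf1 and Nox4 did not. The other tested Ncf1 probe, A_51_P207031, passed with a change of 1.63.

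The oxidase partners, a list of other subunits, regulators and oxidases, included 17 tested genes, of which 5 were higher, 0 were lower and 12 did not pass. Among all tested genes 7.12% were higher and 5.47% were lower. The median change of the list was 0.04, beside -0.12 for all tested genes. Rac2, the GTPase of the phagocyte complex in blood cells, gave -1.50, -1.41 and -0.08 in MRL mice and 2.06, 2.30 and 2.03 in LPR mice, a change of 3.12 (8.72-fold, limma adjusted p = 0.00218). Vav1, an exchange factor that loads Rac in leukocytes, rose by 3.09 (8.53-fold, adjusted p = 0.00180). Of the other higher genes, 2 were named after their values were seen: Tks4, an organizer-like adaptor (1.27, adjusted p = 0.000564), and Cybc1, the chaperone of the Cybb and Cyba pair (0.56, adjusted p = 0.0178). The Rac2 paralog Rac1, also named afterwards, is found in most cell types and gave 0.00 (adjusted p = 0.999), and Nox1, the oxidase of colon epithelium, gave -0.13 (adjusted p = 0.784).

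MRL 3 was the control nearest to the LPR mice for Ncf1, Ncf4, Rac2 and Vav1. It was the highest control for Cybb too, by a small margin, at -4.12 against -4.13 in MRL 1 for the brighter probe and at -4.02 against -4.20 for the other. It was also the highest control for the macrophage marker Adgre1, at 0.68 against -1.57 and -1.76. Of 14 macrophage and monocyte markers, 13 were higher in LPR kidneys, beside 7.12% of all tested genes. The mean of the list was -0.47 to 0.06 in MRL mice and 1.83 to 2.01 in LPR mice, with MRL 3 the highest control. Adgre1 rose by 2.84 (limma adjusted p = 0.0274, 12.3-fold without MRL 3 against 7.14-fold with it, and not past the test under 8 alternatives), Cd68, a lysosomal protein of macrophages, was 8.59-fold higher (adjusted p = 2.92e-05), and Itgam, an integrin of myeloid cells, gave -0.09 (adjusted p = 0.783). No marker of the list was below background on all control arrays.

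**Figure D4:**
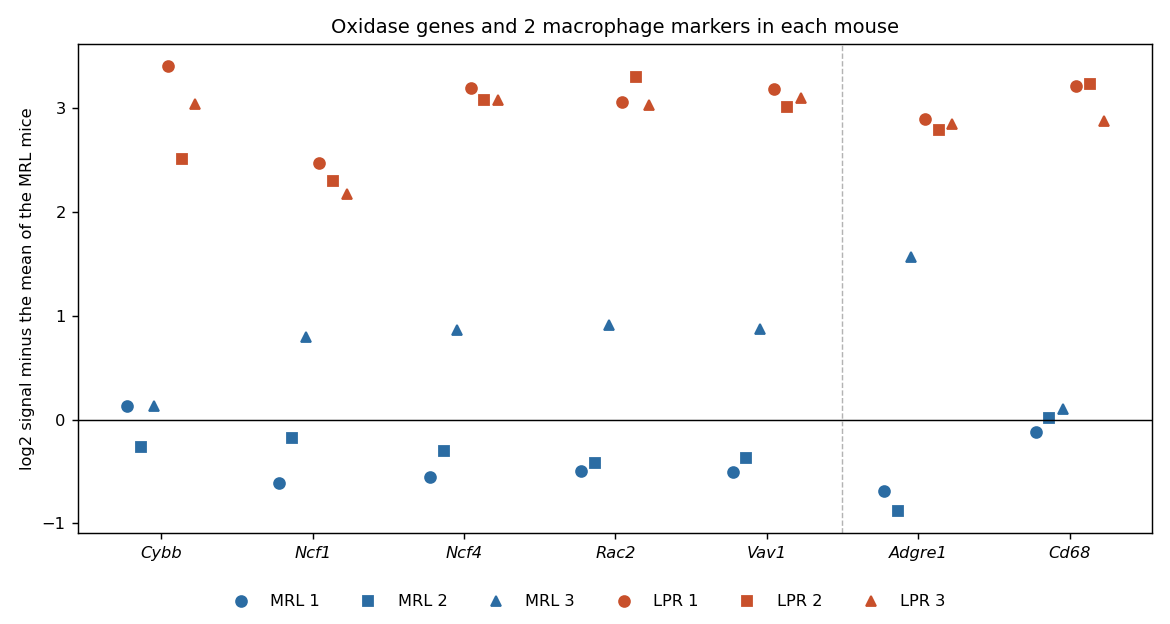
Log2 signal of each mouse minus the mean of the MRL mice (y axis) for the oxidase genes Cybb, Ncf1, Ncf4, Rac2 and Vav1 and, right of the dashed line, the macrophage markers Adgre1 and Cd68 (x axis). MRL 3 is the highest control, well apart from the other two for Ncf1, Ncf4, Rac2, Vav1 and Adgre1 and close to MRL 1 for Cybb and to MRL 2 for Cd68, and every LPR mouse is above every MRL mouse for all 7 genes.

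Markers of other leukocytes were counted in the same way, beside 7.12% higher and 5.47% lower among all tested genes. Of 11 tested neutrophil markers, 3 were higher, 0 were lower and 8 did not pass, with a median change of 1.09. The higher ones were Mpo and, named after their values were seen, S100a8 (2.48, limma adjusted p = 0.00719) and S100a9 (2.28, adjusted p = 0.0105). Ly6g, the marker that defines the cell, gave 0.37 (adjusted p = 0.101). The list mean was -3.38 to -3.26 in MRL mice and -2.57 to -1.76 in LPR mice. Of 7 tested B cell markers 3 were higher and 1 was lower by the brightest probe. The lower one was Ms4a1, named after its values were seen (limma adjusted p = 0.0497), and its 1 other tested probe was higher. The mean of the B cell list was -3.56 to -3.41 in MRL mice and -2.61 to -2.32 in LPR mice, while the median change of this list was -0.04. Of 7 tested T cell markers 6 were higher, with a median change of 3.53, and the list mean was -1.97 to -1.82 in MRL mice and 0.54 to 0.71 in LPR mice. In whole kidney, more cells of a type and more RNA per cell cannot be told apart, and how much of the change in Cybb, Ncf1, Ncf4, Rac2 and Vav1 moved with these markers was not tested.

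Beside Nox4 and the dismutases stood the markers of the tubule. Of 12 proximal tubule markers 4 were lower, 0 were higher and 8 did not pass, beside 5.47% lower and 7.12% higher among all tested genes. The mean of these markers was 5.64 to 5.74 in MRL mice and 5.16 to 5.32 in LPR mice, with a median change of -0.26. The fall of the mean, -0.45, became -0.30 without Slc7a13, an amino acid transporter named after its values were seen, which changed by -2.12 and gave 0.58, -1.58 and -1.12 in MRL mice. Lrp2, the endocytic receptor of the brush border, was lower by -0.39 (limma adjusted p = 0.0492, lost under 13 alternatives, with 0 of its 4 other tested probes lower by the test), and Slc34a1, the phosphate transporter, gave -0.30 (adjusted p = 0.216). Of 8 distal nephron markers 2 were lower and 0 higher. Their part in the changes of Nox4 and of the dismutases was not tested.

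Other genes that make oxidants were mixed. Of 12 tested, 3 were higher, 2 were lower and 7 did not pass, with a median of -0.21. Among all tested genes 7.12% were higher and 5.47% were lower. Xdh, which makes superoxide and urate, rose by 1.00 (limma adjusted p = 0.0121), Nos2, the inducible nitric oxide synthase, by 0.92 (adjusted p = 0.00618) and Mpo, the peroxidase of neutrophil granules, by 0.65 (adjusted p = 0.0458). Maob, a mitochondrial amine oxidase, was lower by -0.60 (adjusted p = 0.0456), and Hao2, a peroxisomal oxidase of tubule cells, by -0.53 (adjusted p = 0.0492). Mpo, Maob and Hao2 lost the call under 10 to 13 of 19 alternatives.

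Of 22 tested genes that remove peroxide, 0 were higher, 1 was lower and 21 did not pass by the brightest probe, with a median of -0.16, close to that of all genes. With 7.12% higher and 5.47% lower among all tested genes, these counts and those of the glutathione list are near the background. The lower one was the peroxidase Gpx6, with 1.32, 0.90 and 1.08 in MRL mice and -0.05, 0.00 and -0.59 in LPR mice, a change of -1.31 (limma adjusted p = 0.00630). Catalase (Cat) gave -0.20 (adjusted p = 0.314), the cytosolic peroxidase Gpx1 0.04 (adjusted p = 0.892) and the secreted Gpx3, a product of the proximal tubule, -0.22 (adjusted p = 0.306). Txnrd1, named after its values were seen, gave -0.21 (adjusted p = 0.300) while 1 dimmer probe of it was lower.

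Of 24 genes of glutathione metabolism and of the Nrf2 response, 0 were higher, 1 was lower and 23 did not pass by the brightest probe, with a median of -0.20. Gclc, the catalytic subunit of the first step of glutathione synthesis, was the lower one at -0.87 (limma adjusted p = 0.0336, lost under 9 alternatives). Nfe2l2, which encodes Nrf2, gave -0.30 (adjusted p = 0.402) while 1 dimmer probe of it was lower, and its target Nqo1 gave -0.37 (adjusted p = 0.307). Mgst1, named after its values were seen, gave 0.66 (adjusted p = 0.0547) while 1 dimmer probe of it was higher. Gss and Tkt, also named afterwards, each had 1 dimmer probe that was lower. Among 13 genes of heme and iron handling, Lcn2, an iron-siderophore binding protein released by injured tubules and neutrophils, rose by 2.14 (4.41-fold, adjusted p = 0.00483), and the other 12 did not pass. Over the 5 lists, 9 of 88 genes were higher, 4 were lower and 75 did not pass, which is 10.2% higher and 4.55% lower beside 7.12% and 5.47% of all tested genes.

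**Figure D5:**
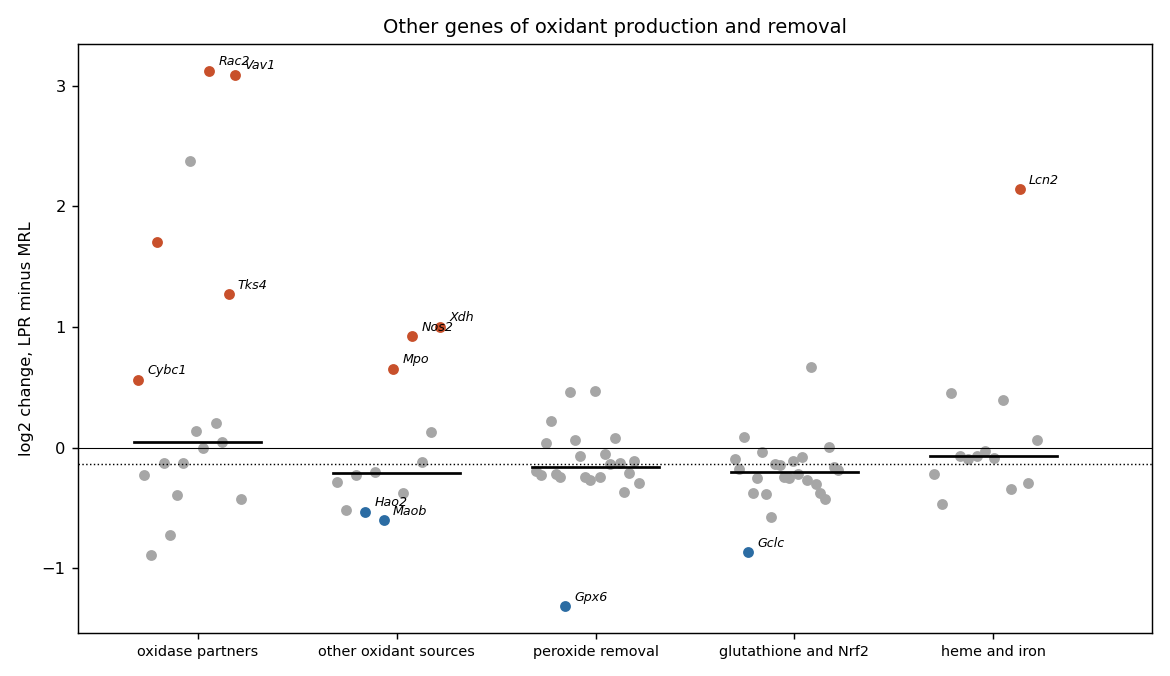
Log2 change, LPR minus MRL (y axis), of each tested gene in 5 lists of oxidant production and removal (x axis). Red (higher) and blue (lower) points passed the test, thick bars are list medians and the dotted line is the median of all tested probes. The oxidase partners hold 5 of the 9 higher genes, and no gene of peroxide removal or of the glutathione list was higher by its brightest probe.

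The genes whose pattern over the 6 arrays was most like that of Cybb, among 15264 genes above background on all arrays, were Rnase2a, Hpse, Arl5c, Ltbp2 and Cd44. Their root-mean-square distances from Cybb, after each gene was centred on its mean, were 0.170 to 0.219 on the log2 scale, and their changes were 2.67 to 3.16. Genes were chosen by this distance over the same 6 arrays, so similar changes follow from the choice, here and for Nox4. For Nox4 the nearest 4 were Folh1, Tulp2, Vmn1r70 and Cyp2j13, at distances of 0.0470 to 0.0554 and with changes of -0.55 to -0.50. The nearest gene to Hmox1, looked for after its values were seen, was DXBay18, at a distance of 0.524 and a Pearson correlation of 0.964. Such a distance grows with the spread of the gene itself, which was wide for Hmox1, so it cannot be set against those of Nox4.

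The 250 bases before the start of Cybb, Ncf1 and Nox4 are shown because the first 2 genes rose together and the third did not. They come from the RefSeq promoter table of build GRCm38.p6, which matched 6 of the 9 genes, all but Ncf4, Sod3 and Hmox1. Capitals mark the interferon gamma activated site letters TTCNNNGAA, searched on both strands of the window from 250 bases before to 50 after the start. They were found in Ncf1 (first base at -88), Nox4 (-222) and Sod2 (-185), and in 8.3% of 32851 promoters of that length. The window of Cybb held no match.
Cybb, chrX:9469325-9469574, minus strand: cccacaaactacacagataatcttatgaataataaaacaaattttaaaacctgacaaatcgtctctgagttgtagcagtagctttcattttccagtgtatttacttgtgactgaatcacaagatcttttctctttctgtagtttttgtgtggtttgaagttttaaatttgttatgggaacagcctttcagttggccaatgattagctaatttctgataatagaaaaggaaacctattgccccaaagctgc
Ncf1, chr5:134229626-134229875, minus strand: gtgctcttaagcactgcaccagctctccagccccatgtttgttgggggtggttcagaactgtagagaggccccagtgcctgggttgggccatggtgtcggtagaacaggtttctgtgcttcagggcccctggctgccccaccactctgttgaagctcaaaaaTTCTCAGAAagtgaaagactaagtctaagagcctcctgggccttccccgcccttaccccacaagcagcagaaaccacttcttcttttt
Nox4, chr7:87246399-87246648, plus strand: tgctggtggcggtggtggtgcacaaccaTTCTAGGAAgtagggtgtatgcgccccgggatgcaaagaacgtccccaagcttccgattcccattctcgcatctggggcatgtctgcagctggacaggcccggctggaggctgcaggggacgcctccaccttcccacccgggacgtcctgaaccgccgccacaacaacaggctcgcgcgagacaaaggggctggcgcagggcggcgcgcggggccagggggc

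These stretches differ in base composition, with 34.0% G and C before Cybb, 54.4% before Ncf1 and 67.2% before Nox4. The PU.1 box letters GAGGAA, the core read by a myeloid transcription factor, occurred in 28.3% of all promoters and among the members in Cybb (on the minus strand, first base 10 after the start, outside the printed bases) and Sod2. The antioxidant response element letters TGACNNNGC occurred in 12.4% of promoters and among the members in Sod1 only. The 3 searches were descriptions of letters in these windows.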

How the data were processed

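Intensities of 6 single-colour Agilent SurePrint G3 arrays, 1 per mouse, were taken as deposited by the authors (Feature Extraction 12.0.3.1, which subtracts the background within each array). The methods name Trizol for the RNA and the labels the RNeasy Mini Kit. The authors also deposited the ratio of each intensity to its array's 75th percentile, used here as an alternative. Control and outlier spots were left out, log2 intensities were shifted by the 75th percentile of the array (706 to 942), spots of 1 probe were averaged, and probes well above background on at least 3 arrays were compared with limma 3.58.1 (R 4.3.3) and Benjamini-Hochberg adjustment at 0.05. The brightest tested probe, by its mean over all 6 arrays, stands for a gene. The genes named are the 9 members, Fas, up to 3 rises and 3 falls per list, set partners, enzymes and markers, and the 5 genes of most like pattern. Some genes of the lists are not reported here by name. The members and lists were chosen with earlier results of these data known. The alternatives were other background corrections, scalings, filters, fits and leaving out each mouse. The steps were tested on simulated data. Nothing says whether littermates were used, and 3 mice per group limit the precision.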

Additional observations from a re-analysis of the deposited data

How the results depend on the processing

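The 5 higher member probes and the 3 higher member genes kept their direction under all 20 alternatives, with 4 probes and 2 genes past the threshold with the slide column as a block or with the methods' t-test, and all of them otherwise. The 4 probes that passed under every alternative were both Cybb probes, the Ncf4 probe and A_51_P207031 of Ncf1. The 2 lower member probes were less firm, and for these counts the cause was not tested. They were 4 with normexp or an intensity trend, 0 without a filter on dim probes, with the slide column, with the replicate block and with the methods' t-test, and 0 to 1 without 1 mouse. Lower member genes were 2 with normexp or the trend, 0 without the filter, with the slide column, the replicate block, the methods' t-test or the mean of a gene's probes, and 0 to 1 without 1 mouse. At an unadjusted p under 0.05 the methods' t-test took 5 member probes as higher and 4 as lower. Cybb minus Nox4 was 2.41 with normexp and 4.01 with the slide column.

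Higher pathway genes were 14 with the trend and 5 with the slide column. Lower ones were 9 with normexp, 7 with the trend, 2 with the percentile over detected probes, 1 without the filter, 1 with the slide column, 2 with the replicate block, 0 with the methods' t-test and 1 to 3 without 1 mouse. Xdh and Gpx6 lost the call with the slide column and the methods' t-test, Nos2 with the first and Lcn2 with the second. Of all tested probes, 1458 were higher with the slide column and 1736 with the methods' t-test. The lower ones were 4498 with normexp, 1093 without the filter, 463 with the slide column, 1117 with the replicate block, 1386 with the methods' t-test and 760 to 2269 without 1 mouse.

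Signs turned only among values that had not passed. For Cyba, A_55_P2736580 was -0.0057 with normexp, and A_55_P1979341 was -0.16 with the slide column and -0.076 to 0.13 without 1 mouse. Nox4 A_55_P2719940 was 0.090 with the slide column, and Hmox1 was -0.31 to 1.10 without 1 mouse (-0.13 without MRL 1, -0.31 without LPR 3). Gpx1 was -0.0073 with quantile normalization, -0.25 with the slide column and -0.054 to 0.18 without 1 mouse. Nfe2l2 was 0.021 with the slide column. Without 1 mouse Itgam was -0.19 to 0.092 and Nox1 was -0.44 to 0.086.

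The replicate numbers were not taken as pairs. The deviations of same-numbered mice correlated at 0.12, 0.02 and 0.01. The first of these, MRL 1 with LPR 1, was the highest of all pairs, while MRL 2 correlated best with LPR 3 (0.04). These correlations cannot show whether the mice were paired. The replicate block left 5 member probes higher and 0 lower.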

Other observations

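The red blood cell markers varied between mice, as Hmox1 did. The mean of 5 tested markers was 2.60, -0.21 and 1.00 in MRL mice and 2.21, 2.93 and 3.64 in LPR mice, beside Hmox1 values of 0.66, 1.60 and 3.12 and of 1.91, 1.07 and 3.73. LPR 3 was the highest mouse on both, whereas MRL 1, the lowest mouse for Hmox1, was the highest control for the red blood cell markers. None of these markers passed the test between groups, and the relation was not tested.

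Prkcb, a kinase that phosphorylates Ncf1 in leukocytes, was named after its values were seen. It gave -2.70, -2.43 and -0.18 in MRL mice and 0.97, 0.32 and 0.55 in LPR mice, a change of 2.38 that did not pass the test (limma adjusted p = 0.0533), and of its 2 other tested probes 1 was higher and 1 was lower. MRL 3 was again the control nearest to the LPR mice.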
